A study of Mus musculus with 43 samples.

Results

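Eph receptors are receptor tyrosine kinases of the cell surface. The 10 genes described here are Epha3, Epha4, Epha5, Epha6, Epha7, Epha8, Epha10, Ephb1, Ephb2 and Ephb6. They were found in a table of read counts for 54532 mouse genes by matching Ensembl gene identifiers to these symbols, and they are 10 of the 14 Eph receptor genes in the annotation. The list was drawn up with results of the same libraries known, and its members are taken to have been chosen by their differences between treated and control retinas. Those differences are therefore given as a description with no test, and tests are given for differences between days and between sexes. These tests use the same libraries, so they are not independent of the choice.

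RNA was measured in retinas of C57BL/6J mice, aged 9 weeks, that had received laser burns inducing choroidal neovascularization, the growth of vessels from the choroid towards the retina. Every group was lasered, the controls included, and retinas were taken at 3, 7 or 14 days post-lesion (dpl) from males and females. Treated mice drank water with short-chain fatty acids (SCFA), namely sodium acetate at 67.5 mM, sodium propionate at 40 mM and sodium butyrate at 25 mM, from before the laser until collection, and control mice received no SCFA. The 12 groups of sex, treatment and day held 3 to 5 libraries each, 43 in all, and each library pooled 2 retinas from different animals. No unlasered retina was analysed here, so no value below is a response to the laser itself.

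Ephrins, the ligands of Eph receptors, sit on the membrane of neighbouring cells, so that signalling needs contact between cells and can run in either direction. EphA receptors mostly bind ephrin-A ligands, which are anchored by a lipid, and EphB receptors mostly bind the transmembrane ephrin-B ligands. In the developing visual system the pair of families guides axons of retinal ganglion cells to their targets, and in adult tissue it also acts on synapses, glia and vessels.

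The libraries held between 14826957 and 21507527 counts (median 17683615). CPM are the counts scaled to a common library size of 1e6. By these unadjusted totals the limit which a count of 0 would allow, 3 counts, lay at 0.139 to 0.202 CPM. All other CPM here use library sizes adjusted by TMM normalization, so this limit is only approximate on their scale. All 10 receptors passed the filter on low counts that left 18197 genes for testing, and each had more than 3 counts in every library. The smallest count of any receptor was 8, for Epha6, whose median over libraries was 23, against medians of 107 for Epha3 and 295 to 635 for the other 8. Epha6 is thus the receptor with the largest counting error. The count table held 2 runs of columns, the first 31 libraries and the last 12, and this run entered every fit as a block. Marker genes of ganglion cells and Muller glia were present in every library, with sums of 802 to 1650 CPM and of 2550 to 7770 CPM. Female SCFA 3 dpl replicate 2 stood apart with lens crystallin markers at 175000 summed CPM, and female control 7 dpl replicate 2 held Y-linked mRNA at 40.7 summed CPM, which was 0 in the other 21 female libraries and at least 135.5 in males. Oligodendrocyte markers reached 852 summed CPM in male control 7 dpl replicate 3 and 640 in male SCFA 7 dpl replicate 2, against a median of 30.2. Some values that rest on these libraries are also given without them, where stated, and all other values include them.

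Per kb of the longest annotated transcript, the receptors fell into a higher and a lower set. Epha10, a receptor whose kinase domain is held to be inactive, stood highest at 5.77 ± 0.83 CPM per kb (mean ± SD over the 12 group means). Epha4, which binds ephrins of both classes, followed at 5.41 ± 1.29. Ephb1, which steers ganglion cell axons that stay on the same side of the brain, lay at 5.25 ± 0.73. Epha8 at 5.16 ± 0.90, Epha5 at 4.93 ± 0.996 and Ephb6 at 4.44 ± 0.76 came next, and each of these 6 receptors differed from its neighbour in the order by less than the spread over groups. Epha7 lay lower at 3.33 ± 0.40. Ephb2, known for roles at synapses and in mapping of ganglion cell axons, lay at 1.87 ± 0.28, Epha3 at 1.05 ± 0.26 and Epha6 lowest at 0.378 ± 0.119 CPM per kb. Among the ligands on the same scale, Efnb3 at 6.49, Efnb2 at 5.13 and Efnb1 at 4.05 CPM per kb stood above every ephrin-A gene, of which Efna3 was the highest at 3.46. Of the 4 other Eph receptor genes, Epha1 lay at 0.261, Epha2 at 0.963, Ephb4 at 1.09 and Ephb3 at 2.13 CPM per kb. The longest transcript is not necessarily the one these cells use, so this order depends on the lengths taken.

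**Figure D1:**
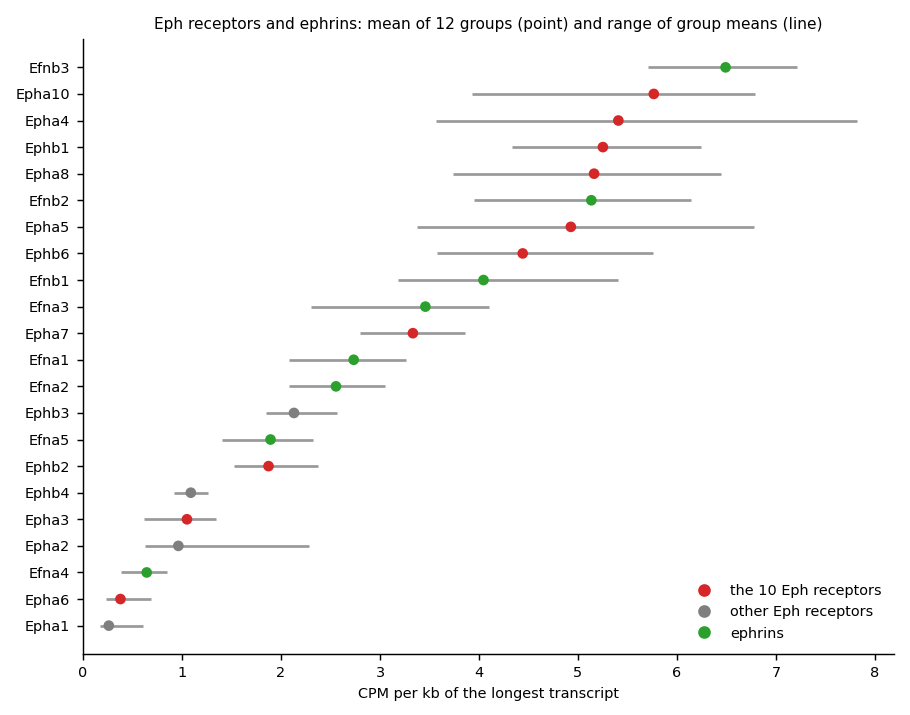
Level of each Eph receptor and ephrin gene in CPM per kb of the longest annotated transcript (horizontal axis, linear). Points are means of the 12 group means, lines span the lowest to the highest group mean, and colours separate the 10 receptors described, the other 4 Eph receptors and the 8 ephrins. Efnb3 and Epha10 stand highest, and Epha6 and Epha1 lowest.

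The receptor genes are long. Of the 10, 7 span more than 122.6 kb, the 90th percentile of the genes tested, whose median span is 19.2 kb, and Epha6 covers 952.0 kb. Their transcripts differ widely in base composition. The GC content of the longest transcript is 40.1% for Epha5, 41.7% for Epha7, 41.9% for Epha3 and 45.6% for Epha4, against 59.4% for Ephb6, 59.5% for Epha10 and 61.3% for Epha8. Epha6 at 48.0%, Ephb1 at 52.7% and Ephb2 at 55.35% lie between, and the genes tested have a median of 49.4%. The values below turn on Epha3, Epha4 and Epha5, which stood higher in several treated groups, and on Epha8 and Ephb6, which stood lower. The 250 bases before the RefSeq start of these 5 genes are therefore shown 5′ to 3′ on the gene's strand, in build GRCm38.p6, with each CG dinucleotide in capitals.
Epha3, chr16:63864176-63864425, minus strand: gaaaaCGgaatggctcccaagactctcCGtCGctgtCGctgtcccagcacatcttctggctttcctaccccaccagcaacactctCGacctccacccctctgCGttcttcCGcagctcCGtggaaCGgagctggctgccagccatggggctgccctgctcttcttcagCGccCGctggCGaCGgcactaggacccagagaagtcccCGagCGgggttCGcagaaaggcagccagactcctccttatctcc
Epha4, chr1:77515089-77515338, minus strand: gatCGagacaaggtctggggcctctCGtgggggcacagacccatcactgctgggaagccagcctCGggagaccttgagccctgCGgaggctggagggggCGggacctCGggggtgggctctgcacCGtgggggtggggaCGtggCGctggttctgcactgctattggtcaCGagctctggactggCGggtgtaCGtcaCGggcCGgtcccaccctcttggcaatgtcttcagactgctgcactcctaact
Epha5, chr5:84417383-84417632, minus strand: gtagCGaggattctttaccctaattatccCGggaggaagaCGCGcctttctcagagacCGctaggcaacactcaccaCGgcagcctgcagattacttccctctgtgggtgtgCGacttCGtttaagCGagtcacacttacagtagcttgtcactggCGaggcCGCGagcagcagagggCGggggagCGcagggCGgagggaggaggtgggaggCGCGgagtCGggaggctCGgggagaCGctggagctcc
Epha8, chr4:136956817-136957066, minus strand: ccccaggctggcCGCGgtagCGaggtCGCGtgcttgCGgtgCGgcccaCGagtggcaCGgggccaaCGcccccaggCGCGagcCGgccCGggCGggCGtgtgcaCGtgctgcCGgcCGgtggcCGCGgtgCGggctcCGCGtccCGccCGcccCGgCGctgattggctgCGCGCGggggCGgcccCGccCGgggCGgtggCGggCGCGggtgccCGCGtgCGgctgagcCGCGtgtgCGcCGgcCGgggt
Ephb6, chr6:41605261-41605510, plus strand: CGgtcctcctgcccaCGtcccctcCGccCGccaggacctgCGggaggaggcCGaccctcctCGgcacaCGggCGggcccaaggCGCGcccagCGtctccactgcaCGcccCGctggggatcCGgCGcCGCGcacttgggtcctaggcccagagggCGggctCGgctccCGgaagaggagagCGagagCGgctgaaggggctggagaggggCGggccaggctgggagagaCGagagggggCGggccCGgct
The windows before Epha3, Epha4 and Epha5 hold 16, 14 and 20 CG, counts reached by 25.4%, 29.4% and 17.9% of the 32851 RefSeq promoter windows of this length, whose median is 6. The window before Ephb6 holds 27, reached by 8.56%, and that before Epha8 holds 46, reached by 0.323%. Of the receptors not shown, Ephb1 has 10 CG, Epha6 15, Epha10 17 and Ephb2 20, and Epha7 has 25 or 23 depending on the start taken. CG reads the same on both strands, and these counts describe the letters of the window only.

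Treated and control retinas differed most in males at 7 dpl, where the receptors split into a higher, a lower and an intermediate set. Epha4 lay at 24.9, 21.9 and 20.9 CPM in the 3 control libraries and at 59.0, 36.0, 70.0, 40.0 and 42.2 CPM in the 5 SCFA libraries, the last 2 of which belong to the last 12 columns. Every treated library stood above every control library, and the log2 fold change was 1.19 ± 0.21 (SE, here and below for fitted values). Epha3, whose ligands include ephrin-A5, lay at 3.75, 3.73 and 3.04 CPM in controls and at 9.53, 5.90, 9.96, 5.39 and 7.30 CPM with SCFA, again without overlap, with a log2 fold change of 1.21 ± 0.26. Epha5, a receptor in the mapping of retinal axons, lay at 29.4, 23.3 and 21.6 CPM in controls and at 61.0, 38.3, 70.7, 40.0 and 38.2 CPM with SCFA. Its groups did not overlap either, and its log2 fold change was 1.06 ± 0.22. In all 3 genes SCFA replicates 1 and 3 were the highest libraries of the group.

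In the same comparison Ephb6, which lacks kinase activity, lay at 16.0, 21.1 and 22.4 CPM in control males and at 9.53, 11.6, 12.7, 17.6 and 19.4 CPM with SCFA. The first 3 SCFA libraries stood below all controls and the last 2, from the last 12 columns, overlapped them, with a log2 fold change of -0.75 ± 0.18 in the fit with the run as block. Epha8, an EphA receptor studied mainly in the midbrain target of retinal axons, lay at 22.8, 29.8 and 31.8 CPM in controls and at 12, 18.2, 12.9, 26.1 and 33.0 CPM with SCFA. It had the same arrangement of libraries, and its log2 fold change was -0.78 ± 0.21. Ephb2 at -0.48 ± 0.21, Epha6 at -0.45 ± 0.38 and Epha10 at -0.26 ± 0.20 were also negative, and Ephb1 at 0.37 ± 0.16 and Epha7 at 0.23 ± 0.16 positive. The groups did not overlap for 4 of the 10 receptors, namely Epha3, Epha4, Epha5 and Epha7, against 17.8% of all genes tested. As the background of this comparison, 22.2% of the 18197 genes were called, that is, had a Benjamini-Hochberg adjusted p under 0.1 in edgeR's quasi-likelihood test. The median log2 fold change of the receptors was -0.01 and that of all genes -0.02.

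Other measurements moved with these male 7 dpl values. Within the first 31 columns, which hold 3 libraries of each group, the log2 fold changes were 1.27 for Epha3, 1.28 for Epha4, 1.19 for Epha5, -0.96 for Epha8 and -0.81 for Ephb6. The last 12 columns hold no control of this sex and day. Among the libraries that enter the study's own comparison tables Epha3 was at 0.83, Epha4 at 0.81 and Epha5 at 0.66, Epha8 came close to 0 at -0.12, Ephb6 was at -0.28, and Ephb2 and Epha6 turned positive at 0.12 and 0.27. Genes with a GC content under 42% had a median log2 fold change of 0.33 and those at 58% or more of -0.27, the same order as in the receptors. Of the genes under 42%, 35.7% were called higher, and of those at 58% or more 23.8% lower. The 5th to 95th percentiles were -0.63 to 1.43 under 42%, a range that holds Epha3 and Epha5. At 58% or more they were -0.80 to 0.39, which holds Epha8 and Ephb6. A trend on GC content was also taken out of each library before the fit, a step added once the data had been seen. The trend was that of the genes' log2 CPM, each as a deviation from the gene's mean over libraries. Epha3 then kept 0.96, Epha4 1.08, Epha5 0.74, Epha8 -0.51 and Ephb6 -0.50, while Epha7 came to -0.01 and Epha10 to -0.01. A GC index, the median log2 deviation of low-GC genes minus that of high-GC genes in a library, was 0.36, 0.11, 0.42, 0.00 and -0.08 in the SCFA libraries and -0.09, -0.32 and -0.37 in the controls. The share of mitochondrial mRNA in the counts was 13.82%, 7.652%, 14.75%, 3.879% and 3.737% with SCFA. It was 5.878%, 6.135% and 5.595% in the controls. SCFA replicates 1 and 3 thus had the highest shares, and omitting single libraries never removes both. Muller glia markers summed to 6740, 4110, 7770, 3690 and 4410 CPM with SCFA and to 2550, 3030 and 3290 CPM in controls, and 4 of the 6, Glul, Rlbp1, Aqp4 and Sox9, were called higher. In the other lists 2 of 8 amacrine (Tfap2b, Gad2), 2 of 4 horizontal (Lhx1, Onecut2), 1 of 8 bipolar (Isl1) and 1 of 6 endothelial markers (Tek) were called higher. Lower were 2 of 7 microglia (C1qa, Trem2), 1 of 10 ganglion cell (Nefh), 1 of 8 amacrine (Slc18a3) and 1 of 7 rod markers (Pde6b). Among all genes 22.2% were called. Rod markers summed to 47900 to 99500 CPM with SCFA and to 72300 to 75400 CPM in controls. The part of base composition, of the mitochondrial share or of RNA from these cell types in the receptors' values was not tested. In bulk retina, fewer cells of a type and less RNA per cell cannot be told apart. With the 2 libraries high in oligodendrocyte markers left out one at a time, and in every other single omission from this comparison, Epha4 stayed between 1.04 and 1.31, Epha3 between 1.11 and 1.32 and Epha5 between 0.90 and 1.20.

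**Figure D2:**
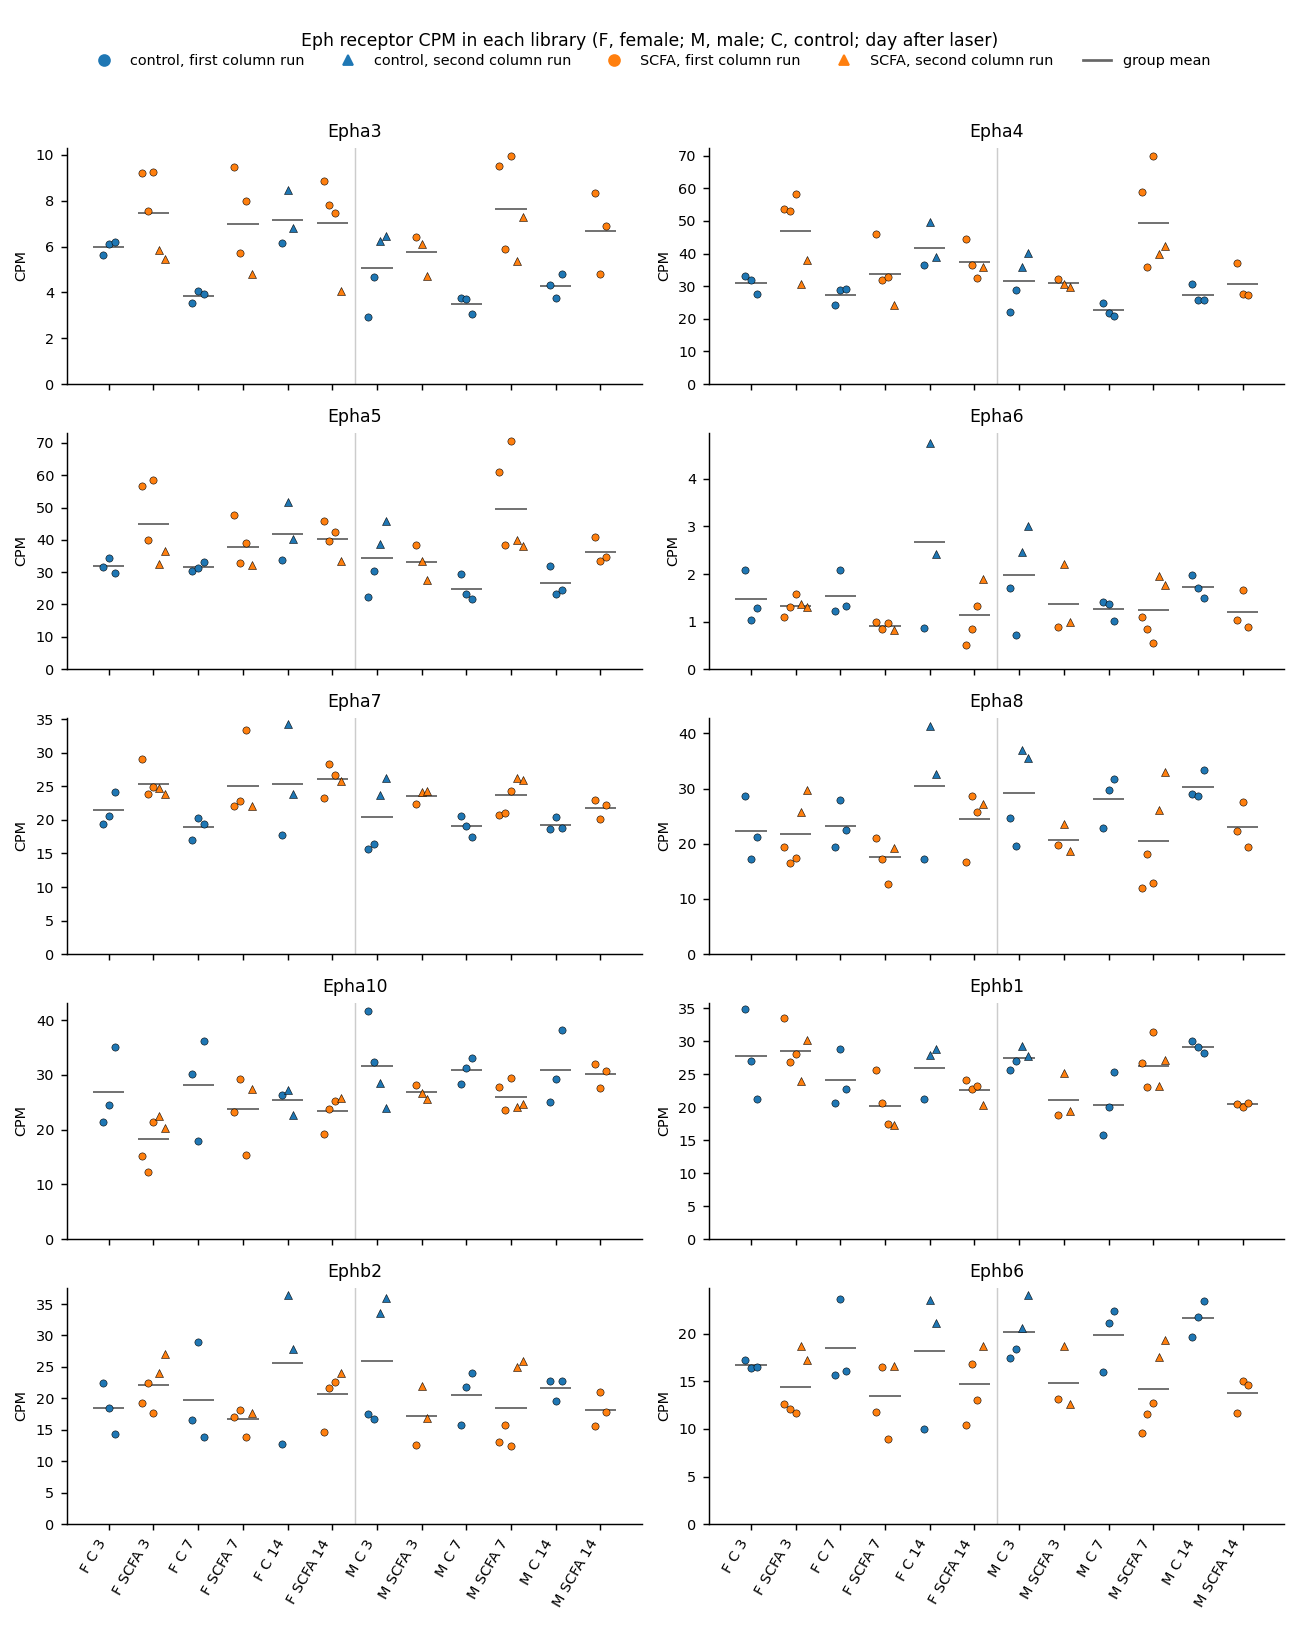
CPM of each of the 10 Eph receptors (1 panel each, linear axis from 0) in every library of the 12 groups of sex, treatment and day. Blue marks controls and orange SCFA, circles the first 31 and triangles the last 12 columns of the count table, and lines group means. The male SCFA 7 dpl libraries of Epha4 sit between 36.0 and 70.0 CPM, all above the control libraries of the same day.

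In females at 7 dpl Epha3 lay at 3.53, 4.05 and 3.92 CPM in controls and at 9.45, 5.73, 7.98 and 4.80 CPM with SCFA. The groups did not overlap, and the log2 fold change was 0.92 ± 0.26, or 0.95 without the control library that held Y-linked mRNA. Epha7, a receptor known for truncated splice forms, lay at 17.0, 20.3 and 19.4 CPM in controls and at 22.0, 22.8, 33.4 and 22.0 CPM with SCFA, a log2 fold change of 0.37 ± 0.16. Epha6 lay at 1.23, 2.08 and 1.33 CPM in controls and at 1.0, 0.843, 0.975 and 0.820 CPM with SCFA, a log2 fold change of -0.95 ± 0.39. These 3 receptors, 3 of 10, did not overlap between groups, against 7.22% of all genes, in a comparison with 0.643% of genes called. Epha4 at 0.34 ± 0.21 and Epha5 at 0.30 ± 0.22 were positive with overlapping libraries, and Ephb6 at -0.61 ± 0.18 and Epha8 at -0.55 ± 0.21 negative. With the GC trend taken out, Epha3 kept 0.69 and Epha6 -1.0 while Epha5 came to 0.03. Low-GC and high-GC genes had medians of 0.29 and -0.26 here, and the receptors of -0.25 against 0.00 for all genes. Without the female control library that held Y-linked mRNA the median of the receptors was -0.07.

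At 14 dpl the receptor estimates in males lay between -0.66 and 0.64. Ephb1 lay at 30.0, 29.2 and 28.2 CPM in control males and at 20.5, 20.1 and 20.7 CPM with SCFA, with a log2 fold change of -0.51 ± 0.17. No library of one group came near the other, and the spread within each group was small. Ephb6 lay at 19.7, 21.8 and 23.5 CPM in controls and at 11.7, 15.0 and 14.6 CPM with SCFA, a log2 fold change of -0.66 ± 0.20. Epha3 lay at 4.32, 3.77 and 4.80 CPM in controls and at 8.35, 4.82 and 6.89 CPM with SCFA, a log2 fold change of 0.64 ± 0.27. Epha5 at 0.46 ± 0.23 and Epha8 at -0.39 ± 0.23 also had groups that did not overlap, which makes 5 of 10 receptors against 33.5% of all genes, in a comparison with 7.13% of genes called. All 6 libraries belong to the first 31 columns. Of the 10 ganglion cell markers, 4 were called lower with SCFA in this comparison (Thy1, Nefh, Slc17a6 and Pou4f3). The sum over all 10 lay at 1480, 1590 and 1290 CPM in controls and at 876, 1210 and 985 CPM with SCFA. The microglia marker C1qa and the pigment epithelium marker Rpe65 were also called lower. Microglia markers summed to 26.8 to 44.4 CPM with SCFA and to 55.7 to 57.9 CPM in controls. Pigment epithelium markers summed to 74.2 to 136 CPM with SCFA and to 166 to 337 CPM in controls. The part of these cell types in the receptors' values was not tested. Low-GC genes had a median of 0.26 and high-GC genes of -0.20.

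Females at 14 dpl differed least. The groups overlapped for all 10 receptors, against 4.01% of genes without overlap, and 0% of genes were called by edgeR. At an unadjusted p under 0.05 edgeR gave 529 genes, and DESeq2 called 1. Apart from Epha6 the log2 fold changes lay between -0.24 (Epha4) and 0.14 (Epha7). Epha6 lay at 0.862, 4.76 and 2.42 CPM in controls and at 0.511, 0.849, 1.32 and 1.90 CPM with SCFA, a log2 fold change of -0.81 ± 0.38. The 2 high control values and the highest SCFA value come from the last 12 columns. Within the first 31 columns the Epha6 difference was 0.07 and within the last 12 it was -0.90, each with a single library in 1 of the groups, and over omissions of single libraries it ran from -1.16 to -0.28. Among the libraries that enter the study's own comparison tables it was -1.98.

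In males at 3 dpl the largest estimate was that of Ephb2. It lay at 17.5, 16.7, 33.5 and 35.9 CPM in controls and at 12.6, 22.0 and 16.8 CPM with SCFA, a log2 fold change of -0.66 ± 0.22. The controls split by run of columns, the last 2 being the higher, and the groups overlapped. Epha6 at -0.62 ± 0.37, Epha8 at -0.55 ± 0.21, Ephb6 at -0.52 ± 0.18 and Ephb1 at -0.37 ± 0.16 were negative too, and of the 10 only Ephb1 had groups that did not overlap, against 8.56% of genes, with 0.022% of genes called. The median was -0.31 for the receptors and 0.00 for all genes. Epha4 at -0.03 ± 0.21 had opposite signs within the runs, 0.35 in the first 31 columns and -0.34 in the last 12. The first 31 columns hold only 1 SCFA library of this comparison, beside 2 controls.

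In females at 3 dpl Epha4 lay at 33.0, 32.0 and 27.6 CPM in controls and at 53.7, 53.1, 58.4, 30.7 and 38.1 CPM with SCFA, a log2 fold change of 0.65 ± 0.20. The 3 SCFA libraries of the first 31 columns stood well above the controls, all of which are in those columns, and the 2 of the last 12 did not. Epha10 lay at 21.4, 24.4 and 35 CPM in controls and at 15.2, 12.2, 21.3, 22.5 and 20.2 CPM with SCFA, a log2 fold change of -0.55 ± 0.21. The lowest of these is the library rich in lens markers. Without it Epha4 was at 0.59 and Epha10 at -0.45. Epha5 at 0.55 ± 0.21 and Epha3 at 0.41 ± 0.25 were positive and Ephb6 at -0.46 ± 0.18 negative. Over omissions of single libraries, the one rich in lens markers included, Epha5 stayed between 0.44 and 0.62. Epha3 stayed between 0.34 and 0.46 and Ephb6 between -0.49 and -0.43. Muller glia markers summed to 3650 to 6920 CPM with SCFA and to 3390 to 4060 CPM in controls, with 3 of 6 called higher (Glul, Rlbp1 and Sox9). Of the 4 pigment epithelium markers Ttr and Lrat were called higher, with sums of 107 to 1150 CPM against 143 to 269 CPM in controls. The values of both marker lists include the library rich in lens markers. The part of either cell type in the receptors' values was not tested. None of the 10 receptors had groups without overlap, against 7.73% of genes, and 8.11% of genes were called.

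**Figure D3:**
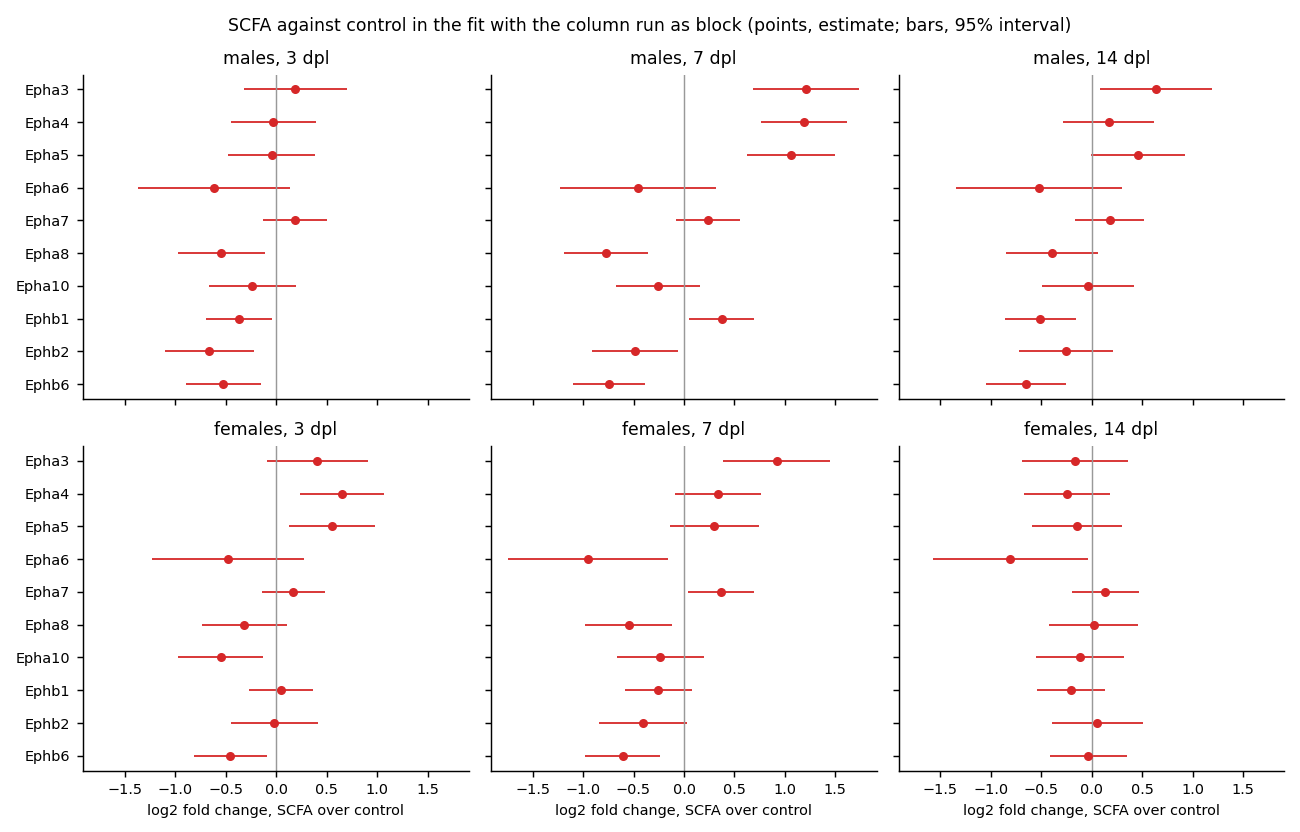
Log2 fold change of each Eph receptor, SCFA over control, with its 95% interval, in males (top) and females (bottom) at 3, 7 and 14 dpl, from the fit with the run of columns as block. Epha3, Epha4 and Epha5 lie above 1 in males at 7 dpl, and in females at 14 dpl 9 of the 10 estimates lie between -0.24 and 0.14. The intervals describe the spread of the estimates and are no test.

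Set side by side, the male and female responses to SCFA differed in their estimates. The male minus female difference of log2 fold changes at 7 dpl was 0.85 for Epha4 (95% interval 0.27 to 1.44), 0.76 for Epha5 (0.16 to 1.36) and 0.63 for Ephb1 (0.17 to 1.08). Epha3 was at 0.29 (-0.43 to 1.02). At 14 dpl Epha3 was at 0.80 (0.04 to 1.57) and Ephb6 at -0.62 (-1.17 to -0.07). At 3 dpl the sign for Epha4 turned, with -0.68 (-1.27 to -0.09), since its female response was then the larger. These differences rest on the same contrasts as the list and carry no test, and their intervals are not adjusted for the number of receptors. Whether an interval includes 0 is therefore no verdict on a receptor. As background, edgeR called 0% of the 18197 genes in each of the 3 interactions. At 3, 7 and 14 dpl 2296, 1332 and 1822 genes had an unadjusted p under 0.05, and DESeq2 called 39, 20 and 0.

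The course over days was tested with both sexes together, in controls and in treated retinas. No receptor was called by edgeR in any of the 4 comparisons, which share their 7 dpl libraries pairwise, and no receptor had groups without overlap. In control retinas Epha3 was lower at 7 than at 3 dpl, with a log2 fold change of -0.67 ± 0.19 (adjusted p = 0.59), and higher at 14 than at 7 dpl, with 0.69 ± 0.20 (adjusted p = 0.36). Over both sexes its control libraries ran from 2.92 to 6.44 CPM at 3 dpl, from 3.04 to 4.05 at 7 dpl and from 3.77 to 8.45 at 14 dpl, so the neighbouring days overlapped. Epha4 had the same shape, with -0.39 ± 0.16 (adjusted p = 0.673) and then 0.51 ± 0.16 (adjusted p = 0.377). In treated retinas Epha3 was at 0.10 ± 0.16 (adjusted p = 0.878) and then at -0.14 ± 0.17 (adjusted p = 0.76), and the difference between the courses of treated and control retinas was not tested. Epha8 in treated retinas was higher at 14 than at 7 dpl by 0.49 ± 0.14, an adjusted p of 0.144 by edgeR and of 0.0655 by DESeq2. The shares of all genes called were 0% for 7 against 3 dpl in controls, 0% for 14 against 7 dpl in controls, 0% for 7 against 3 dpl with SCFA and 0.0659% for 14 against 7 dpl with SCFA. In the first 3 of these, 1191, 1701 and 1555 genes had an unadjusted p under 0.05, among them 3, 3 and 0 receptors, and DESeq2 called 14, 32 and 8 genes and no receptor. In the fourth the counts were 2497 genes with 3 receptors, and 342 genes with 1 receptor.

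Between the sexes, control retinas differed at 14 dpl in 4 of the 10 receptors by edgeR's quasi-likelihood test, against 4.65% of all genes. These libraries are also the control arms of the SCFA comparisons by which the list is taken to have been chosen. The count of 4 is therefore not independent of that choice. Epha3 was at 4.32, 3.77 and 4.80 CPM in males and at 6.15, 8.45 and 6.82 CPM in females. It was lower in males by a log2 fold change of -0.93 ± 0.29 (adjusted p = 0.084), and no male library reached a female one. Epha4 was at 30.6, 25.8 and 25.7 CPM in males and at 36.6, 49.7 and 39.0 CPM in females, a difference of -0.74 ± 0.24 (adjusted p = 0.0891). Epha5 was at 31.8, 23.2 and 24.5 CPM in males and at 33.8, 51.6 and 40.3 CPM in females, a difference of -0.79 ± 0.25 (adjusted p = 0.082). The male libraries of both genes lay below all female libraries, which makes 3 of 10 receptors without overlap against 21.1% of genes. Ephb6 went the other way, with 19.7, 21.8 and 23.5 CPM in males and 9.97, 23.6 and 21.1 CPM in females, a fitted difference of 0.67 ± 0.21 (adjusted p = 0.0818). Its groups overlapped, and the low female library is the only one of its group in the first 31 columns, where all 3 males are.

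These 4 calls depended on single libraries and on the block. Without the block for the run 0 of the 10 receptors were called, within the first 31 columns, where females have 1 library, 0 were called, and leaving out any 1 of the 6 libraries left 0 or 1. The sign of the 4 differences was the same without the block, at -0.73 for Epha3, -0.61 for Epha4, -0.66 for Epha5 and 0.25 for Ephb6. With the GC trend taken out they were -0.72, -0.65, -0.53 and 0.44, with 0 called. Low-GC genes as a class were lower in males, with a median of -0.29, and high-GC genes higher, with 0.23. Ganglion cell markers were higher in males, 4 of 10 called (Thy1, Nefh, Rbpms and Pou4f3). Their sums over the 10 were 1480, 1590 and 1290 CPM in males and 1010, 1040 and 1210 CPM in females. The endothelial marker Tie1 was also called higher in males. The part of these cell types in the receptor differences was not tested. At 3 and 7 dpl 0 of the 10 receptors were called, with 0 of them at an unadjusted p under 0.05 and 0 called by DESeq2. Without the female control library that held Y-linked mRNA the 7 dpl count was 0 as well. The background there was 0.0495% of genes called at 3 dpl and 0.0275% at 7 dpl, with 941 and 694 genes at an unadjusted p under 0.05. One receptor did not overlap between the sexes at 3 dpl (Ephb6, against 8.81% of genes) and one at 7 dpl (Epha5, against 9.81%). The male controls of 14 dpl also serve in the male SCFA comparison, where Epha3 was at 0.64, Epha4 at 0.17, Epha5 at 0.46 and Ephb6 at -0.66.

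**Figure D4:**
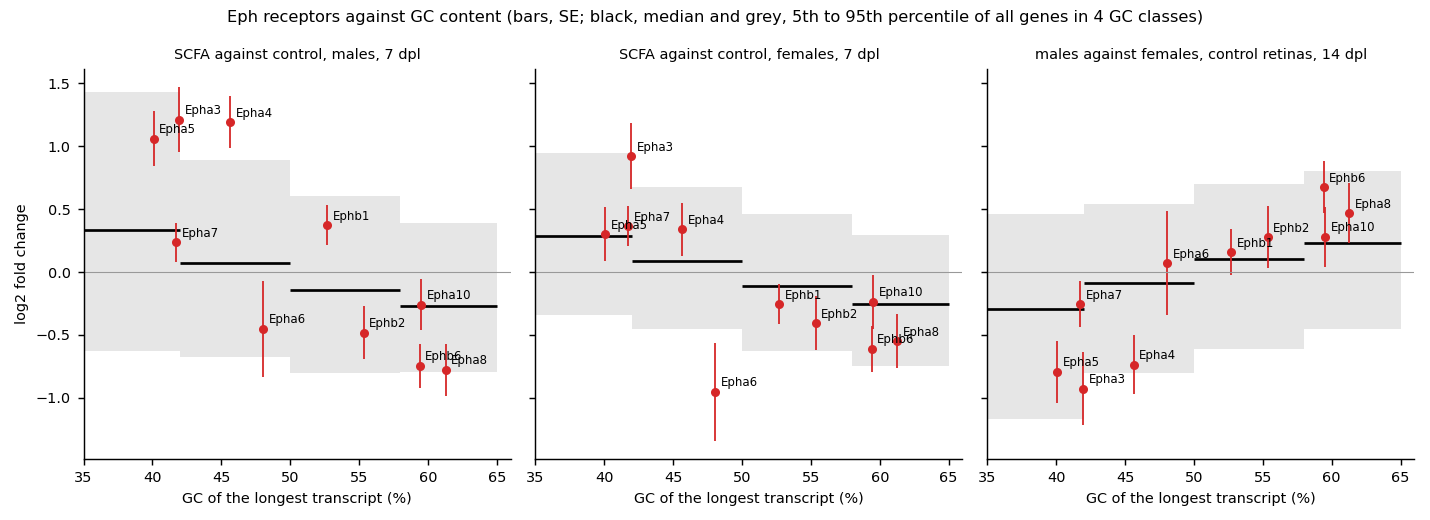
Log2 fold change of each Eph receptor (vertical axis, bars ± SE) against the GC content of its longest transcript in % (horizontal axis) for SCFA against control in males and in females at 7 dpl and for males against females in control retinas at 14 dpl. Black lines are medians of all genes tested in 4 classes of GC content and grey boxes their 5th to 95th percentiles. In males at 7 dpl Epha4 lies above the grey box of its class, Epha3 and Epha5 lie within theirs, and the class medians fall from 0.33 to -0.27.

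The run of columns also moved the receptors unequally. In the fit the last 12 columns stood above the first 31 by a log2 fold change of 0.86 for Epha6, 0.67 for Ephb2, 0.61 for Epha8 and 0.55 for Ephb6, and below by -0.27 for Epha3, with Epha10 at 0.00, Ephb1 at -0.01 and all genes at a median of -0.01. Mitochondrial mRNA made up 4.71% to 14.75% of counts in the first 31 columns and 2.50% to 4.57% in the last 12.

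Over the 12 fitted group levels Epha3 had the widest range, 1.22 on the log2 scale, followed by Epha4 at 1.19, Epha6 at 1.11 and Epha5 at 1.06, and Epha7 the narrowest at 0.42. The closest pair of receptors was Epha4 and Epha5, whose profiles, each centred on its own mean, differed by a root mean square of 0.09 on the log2 scale. Epha8 and Ephb6 at 0.13, Epha8 and Ephb2 at 0.14 and Epha3 and Epha5 at 0.18 came next. Among 11691 genes with a mean of at least 5 CPM, the profiles nearest to Epha3 were those of Ids at 0.09, Nap1l3 at 0.10 and Sp3 at 0.11, against a median of 0.44 for all. The nearest to Epha4 were Pak3 at 0.08, Sash1 at 0.09 and Dlgap1 at 0.09, against a median of 0.37. Such likeness is over 12 group levels that share libraries, runs and base composition, and it is a description only.

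The other members of the system were tested in every comparison. Of the 8 ephrins and the 4 other Eph receptors, 1 of each was called, both in males at 7 dpl, where 22.2% of all genes were called. Efnb2, the ligand of Ephb1 at the optic chiasm and a marker of arteries, rose from 19.8 to 29.2 CPM, a log2 fold change of 0.55 ± 0.22 (edgeR adjusted p = 0.0883). Leaving out SCFA replicate 1 or 3 or any 1 control took it to adjusted p values of 0.157 to 0.328, and 7 of 19 alternatives ended the call. Ephb3, a receptor of ephrin-B ligands, fell from 11.1 to 8.76 CPM, with -0.46 ± 0.17 (edgeR adjusted p = 0.0646), and the same test gave an adjusted p of 0.357 with the GC trend taken out and of 0.286 without the block, among 9 of 19 alternatives that ended the call. Epha2 and Epha1, receptors of epithelial cells, reached 31.7 and 7.37 CPM in the library rich in lens markers.

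Of 28 genes of Eph signalling, 7 were called higher and 2 lower in males at 7 dpl, beside the 22.2% of all genes called there. The 3 with the smallest adjusted p were Yes1, a Src family kinase, at 0.48 (adjusted p = 0.0108), Rasa1, a Ras GTPase-activating protein, at 0.66 (0.021), and Chn2, a Rac GTPase-activating chimaerin, at 0.72 (0.0213), all log2 fold changes tested by edgeR. Of 19 alternatives 2 ended the call of Yes1, 5 that of Rasa1 and 1 that of Chn2. In males at 14 dpl 1 was higher, the serine/threonine kinase Rock1 at 0.56 (adjusted p = 0.0768), and 3 were lower, of which Pak1, a kinase activated by Rac, at -0.71 (0.044) and the chimaerin Chn1 at -0.52 (0.0563) had the smallest values, against 7.13% of all genes called. Of 17 alternatives 8 ended the call of Rock1, 5 that of Pak1 and 5 that of Chn1. In females at 3 dpl Ngef, an exchange factor that binds Epha4, rose by 1.07 (adjusted p = 0.05) and Rhoa by 0.38 (0.0508). Without the library rich in lens markers Ngef was at 0.24 (adjusted p = 0.532) and Rhoa at 0.31 (0.214), so both calls, in a comparison with 8.11% of all genes called, ended. Between the sexes at 14 dpl Rock2 at -0.56 (adjusted p = 0.0647) and Rock1 at -0.60 (0.0839) were lower in control males, beside 4.65% of all genes called, and 9 and 12 of 17 alternatives ended these calls.

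Receptors of other guidance cues, 17 in all, were called in males at 7 dpl in 2 cases upward and 4 downward, where 22.2% of all genes were called. Robo2, a Slit receptor, rose by 0.75 (edgeR adjusted p = 0.00479). It stayed called under each of 19 alternatives at the same threshold, with adjusted p values up to 0.0477. Its estimate lies below the stricter threshold of an absolute log2 fold change over 1. Unc5a, a netrin receptor, fell by 0.49 (adjusted p = 0.00893) and Plxnb2, a semaphorin receptor, by 0.56 (0.00929), calls that 1 and 3 of the 19 alternatives ended. In females at 3 dpl 3 were lower, Plxnb1 at -0.49 (adjusted p = 0.0449), Unc5a at -0.41 (0.0668) and Plxna3 at -0.66 (0.0966), beside 8.11% of all genes called, and none of these calls remained without the library rich in lens markers (adjusted p = 0.184, 0.221 and 0.205). No gene of either list was called in the other comparisons of SCFA with control, of days or of the response between sexes.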

How the data were processed

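Retinal RNA of 43 libraries was sequenced by the study as paired ends on an Illumina NovaSeq after a Novogene library preparation. The values used are whole-number read counts per Ensembl gene as deposited, not normalized. Per the labels the genome build was mm10 and DESeq2 was among the tools, and the aligner and counter are not given in the sources used here. All 10 receptors were matched by gene identifier in GENCODE M21.

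Counts were filtered by edgeR's filterByExpr over the 12 groups, normalized by TMM, and fitted once over all 43 libraries with edgeR 4.0.16 (quasi-likelihood, R 4.3.3), with terms for group and for the run of columns of the count table. Genes were called at a Benjamini-Hochberg adjusted p under 0.1, over all 18197 genes. SE is the log2 fold change divided by the root of the F statistic. CPM are counts scaled to TMM-adjusted libraries of 1e6 counts. The procedure was tested on simulated data for the male 7 dpl comparison, where edgeR recovered 86.5% of 200 genes changed 2-fold among 17926, with 7.98% false calls. The simulated counts were independent between genes and held no effect of the run of columns or of base composition. The share of false calls in the real comparison, where 22.2% of genes were called, is therefore not known from it.

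The receptors and the other gene lists were chosen with earlier results of these data known. All 10 receptors are named, with the other 4 Eph receptors and 8 ephrins by values or ranges, and of the signalling and guidance lists the called genes, at most the 3 with the smallest adjusted p per comparison. Alternatives were DESeq2 1.42.0, other filters, normalization, thresholds and blocks, each run alone, the libraries that the study's own tables compare, trends on length or GC content removed within each library (lowess span 0.3), and each library left out. For genes other than the 10 receptors, the counts of alternatives that ended a call leave out the stricter thresholds. No replicate pair differed by as little as sampling noise.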

Additional observations from a re-analysis of the deposited data

Results flagged for a closer look

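The distance of the farthest library from its group was checked for the 10 receptors in the 5 groups of 4 or 5 libraries, 50 checks in all, and 2 passed Dixon's 95% critical value, which chance alone passes in about 1 of 20. Both concern Epha7. In female SCFA 3 dpl replicate 1 Epha7 lay at 29.1 CPM, against 23.8 to 24.9 CPM in the other 4 libraries. In female SCFA 7 dpl replicate 3 it lay at 33.4 CPM, against 22.0, 22.0 and 22.8 CPM. The library of 7 dpl also had the highest GC index of all libraries, 0.65, and without it the female 7 dpl log2 fold change of Epha7, SCFA over control, was 0.17.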

How the results depend on the processing

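No receptor's difference between days or sexes turned past the threshold in the opposite direction. The 4 receptors called between sexes at 14 dpl came to 0 with an absolute log2 fold change over 1, with an adjusted p under 0.05, without the block for the run of columns, within the first 31 columns, in the libraries that the study's own tables compare, and with the GC trend removed, and to 1 with the length trend removed. Single omissions left 0 to 1, and DESeq2 called 4. The median log2 fold change of all 10 receptors in this comparison, 0.11, was -0.32 without the block, 0.35 within the first 31 columns and -0.32 in the study's libraries, and -0.17 (without female control replicate 1) to 0.27 under single omissions. With no filter on low counts 2 receptors were called for 7 against 3 dpl and 2 for 14 against 7 dpl in controls and 1 for 14 against 7 dpl with SCFA, where DESeq2 also called 1. Single omissions gave 0 to 1 called for 7 against 3 dpl in controls and for 14 against 7 dpl with SCFA. At 7 dpl the study's libraries gave 3 receptors called between sexes. The cause of these changes was not tested.

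For SCFA against control the median of the receptors moved in males at 7 dpl from -0.01 to 0.24 with at least 10 counts in every library, which drops Epha6, and to 0.27 in the study's libraries. In females at 7 dpl it moved from -0.25 to -0.0086 in the study's libraries and to -0.31 to -0.0716 under single omissions. In females at 14 dpl it moved from -0.13 to 0.37 within the first 31 and -0.41 within the last 12 columns, with single omissions at -0.31 to 0.0294. The median for 14 against 7 dpl in controls, 0.21, was -0.0412 within the first 31 columns and 0.0265 to 0.33 under single omissions, and that between sexes at 3 dpl, 0.01, was -0.21 within the first 31 columns and -0.0352 to 0.20 under single omissions.

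Replicate numbers did not pair the libraries. Deviations from the group means correlated on average at 0.04 over 181 pairs with the same number and at -0.01 over 511 other pairs. With the replicate number as a block 0 receptors were called between sexes at 14 dpl, and the female 14 dpl median was 0.0451.

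Counting error limits Epha6 most, with as few as 8 counts. Where groups differ in run of columns, the block rests on few libraries, and for females at 14 dpl and the sexes at 14 dpl the first 31 columns hold 1 female control. Whether counting used strand is not given in the sources used here, so reads of overlapping antisense transcripts cannot be told apart.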
